A study of Saccharomyces cerevisiae with 12 samples.

Results

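The 9 genes described here encode the enzymes that bring glucose into glycolysis in budding yeast, from the phosphorylation of hexose to the step committed by phosphofructokinase, together with the enzymes that make the activator of that step. They were chosen by symbol: HXK1, HXK2, GLK1, EMI2, PGI1, PFK1, PFK2, PFK26 and PFK27, all present among the 5085 genes of each deposited table. RNA was sequenced from 12 samples of log-phase cultures of 1 MATa strain, TH_5234, in 4 groups of 3. In this strain, a tetracycline-repressible promoter (kanR-tetO7-TATA) stands before RAP1 and the tetracycline-controlled activator CMV-tTA is placed at URA3, in a his3-1 leu2-0 met15-0 background that all 4 groups share. The control group had no doxycycline, and the other groups had 0.01, 0.1 or 0.5 µg/mL, which is meant to lower RAP1 expression in steps. The labels list no group of another strain given doxycycline, so that an effect of the drug and an effect of RAP1 cannot be told apart.

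Hexokinase and glucokinase trap sugar in the cell as hexose 6-phosphate, phosphoglucose isomerase turns glucose 6-phosphate into fructose 6-phosphate, and phosphofructokinase spends ATP to make fructose 1,6-bisphosphate. Yeast has several hexose kinases. HXK2 encodes the main one on abundant glucose and also takes part in glucose repression, whereas HXK1 and GLK1 are known as genes that are held down on abundant glucose and switched on under stress or when glucose runs low. EMI2 is the paralog of GLK1. The 6-phosphofructo-2-kinases Pfk26 and Pfk27 make fructose 2,6-bisphosphate, a signal that activates phosphofructokinase. Rap1, with its partner Gcr1, is a textbook activator of genes of glycolysis.

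Expression was given as FPKM, a fragment count divided by transcript length and by library depth. Each is the authors' pooled level of a group, so no SD over samples can be given, the depth is unknown, and whether the samples were separate cultures is not stated. A gene was called higher or lower where the q-value in the authors' deposited table, a p-value adjusted over the genes, was below 0.05. Log2 fold changes were computed as dose level over control level without a pseudocount. RAP1 itself stood at 31.7 FPKM in the control and at 33.3, 31.0 and 22.0 FPKM with rising dose, and was called lower only at 0.5 µg/mL (q = 0.827, 0.935 and 0.00764 in the authors' deposited tables). Over all tested genes the log2 fold changes had medians of -0.08, -0.03 and -0.30 at the 3 doses. Some changes at 0.5 µg/mL are therefore also given relative to that shift, and values given alone include it. At 0.5 µg/mL RAP1 had a log2 fold change of -0.52, or -0.22 relative to the median of all genes. All 7 marker genes of MATa cells were expressed, with a summed level between 169170 and 191532 FPKM, most of it from MFA1. Of these 7, BAR1, ASG7 and AGA2 were called lower at all 3 doses (BAR1 by log2 values of -0.82, -1.17 and -1.52). STE6 was called lower at 0.1 and 0.5 µg/mL, MFA2 at 0.01 and 0.5 µg/mL and STE2 at 0.5 µg/mL. Their part in the results below was not tested. The 4 genes specific to alpha cells summed to 315 to 389 FPKM, and none was at 0. Among them, MF(ALPHA)1 was called lower at all 3 doses, at log2 values of -1.03, -1.31 and -1.74. SAG1 was called higher at 0.1 and 0.5 µg/mL, at 0.64 and 0.44, and STE3 and MF(ALPHA)2 were called at no dose. LEU2 and MET17 (also called MET15), both deleted in the labelled genotype, were listed at 0 in all groups, whereas HIS3, which the genotype gives as his3-1, stood between 192 and 267 FPKM. URA3, where the genotype places CMV-tTA, stood at 174 FPKM in the control. It was called lower at all 3 doses, at log2 values of -0.59, -0.65 and -1.16, and the part of this in the results below was not tested. In bulk RNA of a culture, a higher level per cell and a larger share of cells expressing a gene cannot be told apart.

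Of the 9 genes, 4 were called higher and 0 lower at 0.01 µg/mL, 5 higher and 1 lower at 0.1 µg/mL, and 4 higher and 1 lower at 0.5 µg/mL. Over all tested genes, the share called higher was 8.75%, 17.6% and 7.49% at the 3 doses, and the share called lower was 15.4%, 20.4% and 38.9%. HXK1, GLK1, EMI2 and PFK26 were higher at all 3 doses, PGI1 at 0.1 µg/mL, and PFK27 was the gene called lower, at 0.1 and 0.5 µg/mL. HXK2, PFK1 and PFK2 were called at no dose. The median log2 fold change of the 9 genes was 0.29, 0.53 and 0.44, beside the medians over all genes given above. With a change of at least 2-fold required as well, 3, 4 and 3 of the 9 genes were higher and 0 lower. In all tested genes, that rule called 2.32%, 4.23% and 2.48% higher and 1.92%, 4.47% and 10.1% lower.

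**Figure D1:**
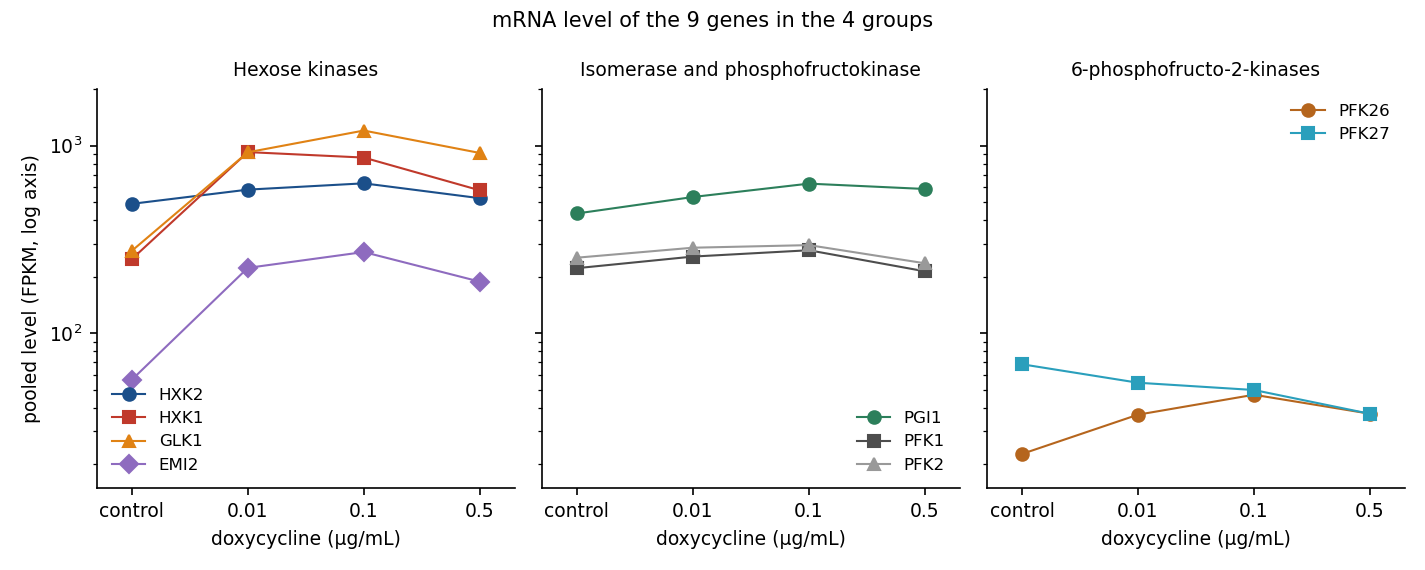
Pooled level of each of the 9 genes (FPKM, log axis) in the control group and at 0.01, 0.1 and 0.5 µg/mL doxycycline, in 3 panels by role; lines join the groups, and there are no error bars because the levels are pooled. HXK1, GLK1 and EMI2 lie far above their control level at every dose, HXK2 stays between 489 and 629 FPKM, and PFK26 and PFK27 start apart and meet at 37.2 FPKM at 0.5 µg/mL.

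Among the hexose kinases, the stress and low-glucose genes HXK1, GLK1 and EMI2 rose at every dose, while HXK2 was called at no dose. HXK2 (YGL253W, chromosome VII, 23935 to 25395, plus strand, R64 build) stood at 489 FPKM in the control and at 582, 629 and 524 FPKM at 0.01, 0.1 and 0.5 µg/mL. These are log2 fold changes of 0.25, 0.37 and 0.11, with q = 0.493, 0.162 and 0.739 in the authors' deposited tables. No q below 0.05 was reached, which does not show that HXK2 was unchanged. Its log2 fold change lay above that of 79.4% to 81.7% of all tested genes at the 3 doses, and relative to the median of all genes it was 0.33, 0.40 and 0.41. Genes of like abundance give a scale for this. Among tested genes with a control level of 200 to 600 FPKM, 63 of 843, 126 of 842 and 69 of 840 were called higher at the 3 doses. The smallest rise called among them was 0.43, 0.38 and 0.44 on the log2 scale, above the value of HXK2 at each dose. At 0.1 µg/mL the margin was narrow, 0.381 against 0.368. HXK2 is itself in this band and was not called, so this scale is not separate from its call.

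HXK1 (YFR053C, chromosome VI, 253592 to 255049, minus strand) encodes the second hexokinase, a near relative of HXK2. Its level was 248 FPKM in the control and 922, 862 and 577 FPKM at the 3 doses, or 3.72-fold, 3.49-fold and 2.34-fold. The log2 fold changes of HXK1 were 1.89, 1.80 and 1.22 (q = 0.000608, 0.000329 and 0.000506 in the authors' deposited tables). HXK1 thus had its highest level at the lowest dose, whereas GLK1 and EMI2 had theirs at 0.1 µg/mL. At 0.5 µg/mL its change relative to the median of all genes was 1.53. No p-value is available for a difference between doses, because the tables were scaled separately and pool their samples.

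GLK1 (YCL040W, chromosome III, 50838 to 52340, plus strand) encodes glucokinase, which phosphorylates glucose and not fructose. GLK1 stood at 275 FPKM in the control and at 920, 1201 and 913 FPKM with rising dose, which is 3.35-fold, 4.39-fold and 3.34-fold. At 0.1 µg/mL its level was the highest of the 9 genes in any group. The log2 fold changes of GLK1 were 1.74, 2.13 and 1.74, and its q-values in the authors' deposited tables, 0.00486, 0.00886 and 0.0334, were larger than those of most genes with such a rise. Of the 45 other genes that rose as much or more at 0.5 µg/mL, 38 had a smaller q. At 0.01 and 0.1 µg/mL, 45 of 47 and 36 of 37 such genes had a smaller q.

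EMI2 (YDR516C, chromosome IV, 1474974 to 1476476, minus strand) was the least abundant of the 4, at 56.5 FPKM in the control and 223, 271 and 188 FPKM at the 3 doses. It had the largest rise of the 9 genes at each dose, 3.94-fold, 4.81-fold and 3.35-fold (log2 fold changes 1.98, 2.26 and 1.74). Its q was the smallest value of each of the authors' deposited tables, 0.000608, 0.000329 and 0.000273. At 0.5 µg/mL EMI2 and GLK1 had nearly the same fold change, a difference of 0.0043 on the log2 scale, and relative to all genes they stood at 2.05 and 2.04. Each of HXK1, GLK1 and EMI2 lay above at least 98.1% of all tested genes at every dose.

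**Figure D2:**
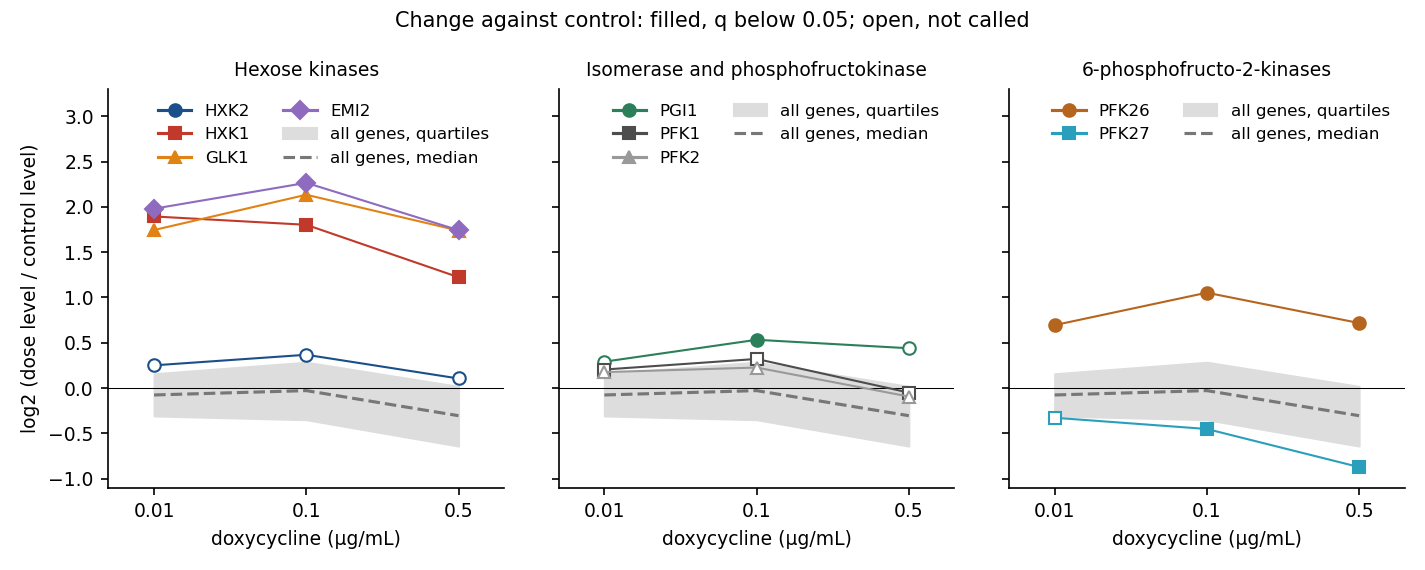
Log2 fold change of each gene against the control at 0.01, 0.1 and 0.5 µg/mL doxycycline; filled symbols are genes with q below 0.05, open symbols are not called, the grey band spans the quartiles of all tested genes and the dashed line is their median. HXK1, GLK1 and EMI2 lie between 1.22 and 2.26, and HXK2, PFK1 and PFK2 are open at all doses and between -0.09 and 0.37.

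The difference between HXK2 and the other kinases can be read within each table, where it does not depend on how the table was scaled. On the log2 scale the change of HXK1 exceeded that of HXK2 by 1.64, 1.43 and 1.12 at 0.01, 0.1 and 0.5 µg/mL. For GLK1 the excess over HXK2 was 1.49, 1.77 and 1.63, and for EMI2 it was 1.73, 1.90 and 1.64. These differences could not be tested, since levels per sample are not given. In the control, HXK1 and GLK1 had 0.508 and 0.562 times the FPKM of HXK2. At 0.01 µg/mL both exceeded it, at 1.59 and 1.58 times, and at 0.5 µg/mL the ratios were 1.10 and 1.74. By pooled FPKM, the order of the 4 kinases was HXK2, GLK1, HXK1 and EMI2 in the control. At 0.1 and 0.5 µg/mL it was GLK1, HXK1, HXK2 and EMI2. Close levels in these orders cannot be ranked with confidence. They are HXK1 and GLK1 in the control, at a ratio of 0.904, and HXK1 and HXK2 at 0.5 µg/mL, at 1.10. At 0.01 µg/mL HXK1 and GLK1 were at 922 and 920 FPKM, which are not told apart without a measure of their spread.

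As a share of the summed FPKM of the 4 genes, HXK2 went from 45.8% in the control to 22.0%, 21.2% and 23.8% at the 3 doses. GLK1 went from 25.7% to 34.8%, 40.5% and 41.4%, and HXK1 from 23.2% to 34.8%, 29.1% and 26.2%. EMI2 took 5.29% in the control and 8.42%, 9.13% and 8.55% with doxycycline. The sum itself was 1068 FPKM in the control and 2647, 2963 and 2202 FPKM at the 3 doses, or 2.48-fold, 2.78-fold and 2.07-fold. HXK2 therefore had the largest share of the 4 in the control and the second smallest at every dose.

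**Figure D3:**
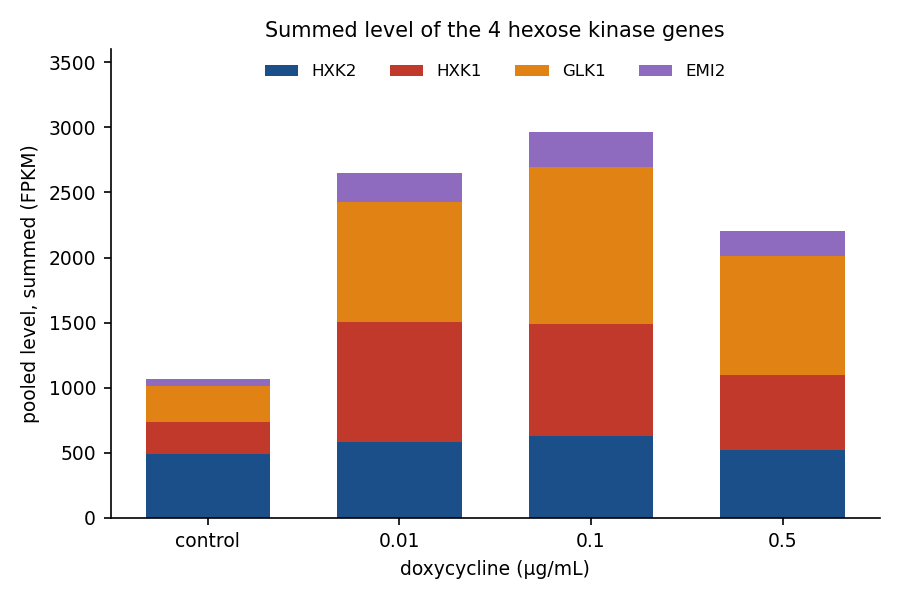
Summed pooled level (FPKM) of the 4 hexose kinase genes in the control group and at 0.01, 0.1 and 0.5 µg/mL doxycycline, stacked by gene. The HXK2 segment is of similar height in all 4 bars, while the HXK1, GLK1 and EMI2 segments make up the rise from 1068 to 2963 FPKM at 0.1 µg/mL.

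Reads of related genes could be assigned to the wrong copy. HXK1 and HXK2 have 77.7% identical bases over their aligned coding sequences, with a longest shared run of 23 bases. GLK1 and EMI2 have 68.7% identical bases, with a longest shared run of 15. None of the 50-base stretches of the 9 coding sequences occurred elsewhere in the R64 genome. The read length is not given in the sources used here. All 9 genes have 1 coding exon.

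The sequence before the start codon was searched for the stress response element AGGGG, the short motif bound by the stress activators Msn2 and Msn4, because the inducible kinase genes moved together. Within 500 bases HXK1 and GLK1 each held 3 matches on either strand, EMI2 held 2 and PFK26 held 1. HXK2, PGI1, PFK1, PFK2 and PFK27 held 0. Among 4992 genes with such a window, 33.7% held at least 1 match, 7.87% at least 2 and 1.82% at least 3. In this window, the 4 genes with a match were the 4 called higher at all 3 doses. The motif was searched with the calls known, so this split is a description and not a test. It was not found in the shorter or the longer window given below. The stretches of 200 bases below show where the matches lie, in capitals, read 5′ to 3′ along the coding strand from the R64 assembly of NCBI RefSeq. Each was placed to hold the matches of its gene, and HXK2 is shown over the same distance as HXK1 for comparison. HXK1 (chrVI:255350-255549, minus strand) and HXK2 (chrVII:23435-23634, plus strand) run from 500 to 301 bases before the start codon. GLK1 (chrIII:50538-50737, plus strand) runs from 300 to 101, EMI2 (chrIV:1476637-1476836, minus strand) from 360 to 161 and PFK26 (chrIX:165962-166161, minus strand) from 400 to 201.
HXK1: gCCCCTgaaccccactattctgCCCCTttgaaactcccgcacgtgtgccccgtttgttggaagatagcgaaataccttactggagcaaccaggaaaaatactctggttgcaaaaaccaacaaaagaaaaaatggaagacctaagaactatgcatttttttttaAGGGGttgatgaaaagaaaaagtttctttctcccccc
HXK2: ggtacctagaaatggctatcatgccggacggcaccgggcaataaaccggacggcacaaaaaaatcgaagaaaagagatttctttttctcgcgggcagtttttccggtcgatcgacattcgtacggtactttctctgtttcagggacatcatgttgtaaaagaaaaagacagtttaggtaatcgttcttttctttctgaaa
GLK1: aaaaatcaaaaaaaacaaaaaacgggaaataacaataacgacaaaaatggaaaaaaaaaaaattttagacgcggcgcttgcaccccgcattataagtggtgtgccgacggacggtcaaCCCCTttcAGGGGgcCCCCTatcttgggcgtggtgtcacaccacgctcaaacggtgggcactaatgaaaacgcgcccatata
EMI2: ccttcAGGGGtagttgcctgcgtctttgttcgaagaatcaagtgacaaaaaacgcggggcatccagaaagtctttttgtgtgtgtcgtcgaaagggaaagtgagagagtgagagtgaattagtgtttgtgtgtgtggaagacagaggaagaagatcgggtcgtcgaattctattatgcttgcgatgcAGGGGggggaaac
PFK26: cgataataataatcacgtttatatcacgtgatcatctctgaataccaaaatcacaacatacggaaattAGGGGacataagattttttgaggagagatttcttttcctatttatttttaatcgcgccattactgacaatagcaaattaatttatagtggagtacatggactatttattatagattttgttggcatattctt

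The matches were spaced differently in each gene. Counted in bases from the start codon, the 3 matches of GLK1 begin at -182, -174 and -167, in alternating orientation. Those of HXK1 begin at -499, -478 and -337, those of EMI2 at -355 and -173, and that of PFK26 at -332. A match is a string of letters and not a shown binding site. Over all tested genes with a window, 31.3%, 44.3% and 27.5% of those with at least 2 matches were called higher at the 3 doses. Of those with 0 matches, 5.02%, 12.4% and 4.12% were called higher. The class with 1 match, to which PFK26 belongs, lay between them at 11.6%, 23.1% and 9.86%, beside 8.75%, 17.6% and 7.49% of all tested genes. The counts depend on the window. From 250 bases before to 50 after the start, HXK1 held 0, EMI2 1, GLK1 3 and PFK26 0 matches, and within 800 bases HXK1 held 5, GLK1 4, EMI2 3, PFK26 1 and PFK2 2. The 800-base windows of GLK1, EMI2 and PFK26 run into a neighbouring gene, 616, 762 and 653 bases before the coding sequence. Those of HXK2, PFK27 and PGI1, with 0 matches, also do.

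Within 500 bases, the other motifs searched did not divide the genes in this way. The core of the Gcr1 site, CTTCC, occurred within 500 bases of all 9 genes except HXK2, with 4 matches in EMI2 and 3 each in HXK1 and PFK27, and 65.4% of all windows held it. The pair of heat shock units GAANNTTC, bound by Hsf1, had 1 match each in HXK1, PGI1 and PFK2, and 19.1% of all windows held it. A core of the Rap1 site was searched on both strands and had 0 matches within 500 bases of the 9 genes, while 0.962% of all windows held it. A missing match says nothing on whether Rap1 binds there. The window of PGI1 runs into a neighbouring gene, which lies 123 bases before its coding sequence. No match of a motif shared a base with a match of another.

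**Figure D4:**
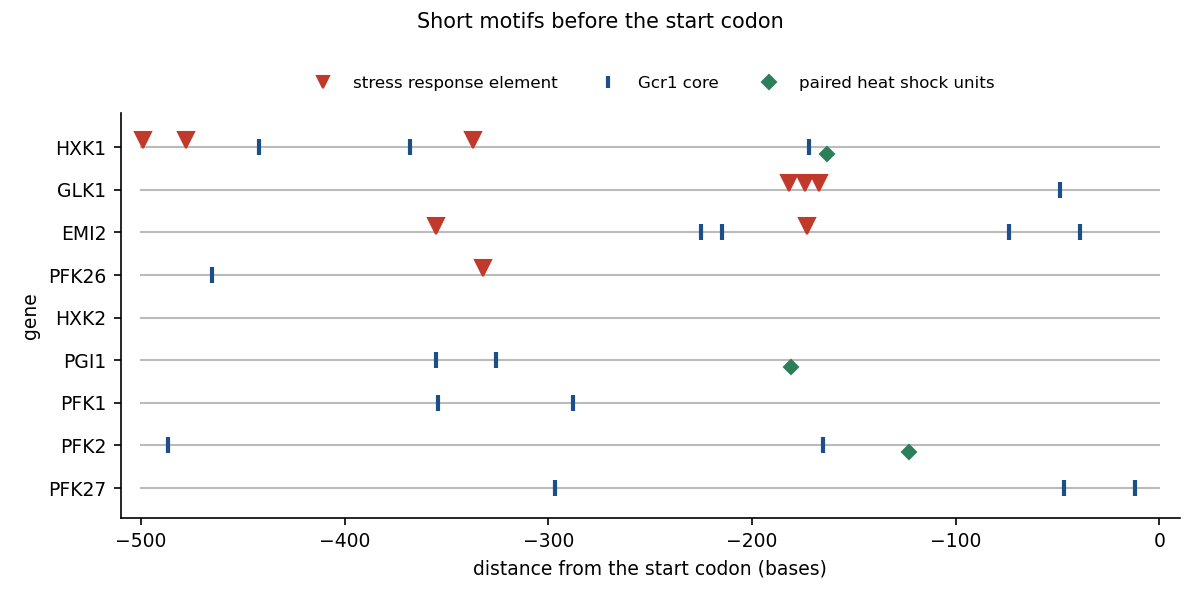
Places of 3 short motifs in the 500 bases before the start codon of each of the 9 genes, with the distance from the start codon in bases on the horizontal axis and 1 line per gene. Stress response elements (triangles) are present in HXK1, GLK1, EMI2 and PFK26 and in none of the other genes, whereas Gcr1 cores (bars) are in all genes except HXK2, and paired heat shock units (diamonds) are in HXK1, PGI1 and PFK2.

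Downstream of the kinases, the isomerase gene rose at 1 dose and the genes of phosphofructokinase were not called. PGI1 (YBR196C, chromosome II, 612236 to 613900, minus strand), the single gene for phosphoglucose isomerase, stood at 434 FPKM in the control and at 532, 626 and 587 FPKM with rising dose. Its log2 fold changes were 0.29, 0.53 and 0.44, with q = 0.407, 0.0409 and 0.085 in the authors' deposited tables, so that PGI1 was called higher at 0.1 µg/mL alone. Relative to the median of all genes it stood at 0.37, 0.56 and 0.74, above 84.4%, 86.8% and 91.7% of all tested genes. The level of PGI1 was 0.407 times the summed level of the 4 kinase genes in the control and 0.201, 0.211 and 0.266 times that sum at the 3 doses.

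PFK1 (YGR240C, chromosome VII, 970771 to 973734, minus strand) and PFK2 (YMR205C, chromosome XIII, 671887 to 674766, minus strand) encode the alpha and beta subunits of phosphofructokinase, which assemble into 1 enzyme. PFK1 stood at 222 FPKM in the control and at 256, 277 and 214 FPKM at the 3 doses. PFK2 stood at 253 FPKM in the control and at 285, 295 and 236 FPKM. The ratio of PFK1 to PFK2 was 0.879 in the control and 0.897, 0.939 and 0.906 with doxycycline. Their log2 fold changes were 0.21, 0.32 and -0.05 for PFK1 and 0.18, 0.23 and -0.09 for PFK2. No call was made (q between 0.244 and 0.882 in the authors' deposited tables). The sign at 0.5 µg/mL depends on the scaling: relative to the median of all genes PFK1 stood at 0.25 and PFK2 at 0.21, and with both groups scaled to the same summed FPKM they stood at 0.17 and 0.13.

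Of the genes for the enzymes that make fructose 2,6-bisphosphate, PFK26 rose at all 3 doses and PFK27 fell at 0.1 and 0.5 µg/mL. PFK26 (YIL107C, chromosome IX, 163278 to 165761, minus strand) had the lowest control level of the 9 genes, 22.7 FPKM, and rose to 36.8, 47.0 and 37.2 FPKM. Its log2 fold changes were 0.70, 1.05 and 0.72, each with the smallest q of the authors' deposited tables (0.000608, 0.000329 and 0.000273). PFK27 (YOL136C, chromosome XV, 67561 to 68754, minus strand) stood at 68.3 FPKM in the control and at 54.5, 49.8 and 37.2 FPKM, lower at each further dose. The log2 fold changes of PFK27 were -0.33, -0.45 and -0.87, with q = 0.136, 0.0174 and 0.000273 in the authors' deposited tables. Relative to the median of all genes PFK27 stood at -0.25, -0.42 and -0.57. The ratio of PFK26 to PFK27 went from 0.333 in the control to 0.676, 0.943 and 1.00, while the sum of both was 91.0 FPKM in the control and 91.3, 96.8 and 74.4 FPKM with doxycycline. The difference between the log2 changes of the pair was 1.02, 1.504 and 1.59 and could not be tested.

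FBP26 encodes the fructose-2,6-bisphosphatase that opposes Pfk26 and Pfk27, and FBP1 encodes fructose-1,6-bisphosphatase of gluconeogenesis, which reverses the phosphofructokinase step. FBP26 was called higher throughout, and its log2 values were 1.04, 1.31 and 0.80 (q = 0.000608, 0.000329 and 0.000273 in the authors' deposited tables). FBP1 was at 0.30, 0.45 and 0.34 and was called higher at 0.1 µg/mL alone (q = 0.29, 0.037 and 0.172 in the authors' deposited tables). Of 15 genes for enzymes that reverse these steps or draw on hexose phosphates, 8, 10 and 8 were called higher and 0, 0 and 5 lower at the 3 doses, with medians of 0.71, 0.95 and 0.63. Of all genes, 8.75%, 17.6% and 7.49% were called higher at the 3 doses, and 15.4%, 20.4% and 38.9% were called lower. Those of them that rose most were TSL1 and PGM2, of trehalose synthesis and glucose 1-phosphate formation, and SOL4 of the pentose phosphate pathway, at log2 fold changes from 2.00 to 3.40. The paralog of PGM2, PGM1, and the pentose phosphate genes GND1 and GND2 were called lower at 0.5 µg/mL, at -0.76, -0.54 and -0.57, or -0.46, -0.24 and -0.26 relative to the median of all genes. TSL1, PGM2, SOL4 and TPS2 are also among the general stress genes counted next.

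HXK1, GLK1 and EMI2 were set beside lists of genes with a like or a related regulation. All gene lists, also the list of enzymes above, were chosen with earlier results of these data known. Their counts are a description and not a test. Of 28 general stress genes, 26 were called higher and 0 lower at each dose, with a median log2 fold change of 1.65, 1.90 and 1.42. The shares of all genes called higher were 8.75%, 17.6% and 7.49% at the 3 doses. The largest changes were those of the chaperone genes HSP104 and HSP42, from 3.33 to 4.37. The smallest among genes called at 1 or more doses were those of PRX1, GRE1 and HSP12, from 0.06 to 0.74, where GRE1 at 0.01 µg/mL and HSP12 at 0.1 and 0.5 µg/mL were not called. The changes of HXK1, GLK1 and EMI2, between 1.22 and 2.26, lay within the range of these genes. That range was wide, from -0.20 to 4.37, and also held the values of HXK2, so it does not set the inducible kinase genes apart. Of 22 other genes that are repressed by glucose, 1 was called higher at each dose and 3, 4 and 11 lower, at medians of -0.0018, 0.011 and -0.41. The shares of all genes called lower were 15.4%, 20.4% and 38.9%, the first and second of them close to those of the list, and relative to the median of all genes the list's median at 0.5 µg/mL was -0.11. The gene that rose was ADR1, the activator of alcohol dehydrogenase 2, at 0.98, 1.12 and 0.61. PCK1, which encodes the gluconeogenic enzyme PEP carboxykinase, and the transporter genes ADY2 and HXT2 were lower at all 3 doses, from -0.58 to -1.39. HXT6 and HXT7, which are near-identical copies and whose values are uncertain for that reason, were lower at 0.5 µg/mL at -0.66 and -0.73. SUC2, the invertase gene and standard readout of glucose repression, was chosen after its values were seen and was not called, at 0.21, 0.24 and 0.10 (q = 0.391, 0.28 and 0.692 in the authors' deposited tables).

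Of 17 genes of glucose repression signalling, 5, 7 and 2 were called higher and 2, 3 and 5 lower at the 3 doses, with medians of 0.13, 0.25 and -0.11. For this list and the next, the shares of all genes are 8.75%, 17.6% and 7.49% higher and 15.4%, 20.4% and 38.9% lower. Relative to the median of all genes, the median at 0.5 µg/mL was 0.19, and the 5 lower calls there stand beside 38.9% of all genes. The repressor genes MIG2 and MIG3 rose at all doses, from 0.54 to 0.85. HAP4, the activator subunit of respiratory gene expression, rose at 0.01 and 0.1 µg/mL, at 1.10 and 1.06. SNF4, a subunit of the Snf1 kinase, and REG2, a phosphatase regulator, were lower at all doses, from -0.61 to -1.003, and the kinase gene ELM1 was lower at 0.1 and 0.5 µg/mL, at -0.46 and -0.59. Of 21 tested hexose transporter and sensor genes, 4, 7 and 3 were higher and 1, 1 and 8 lower. HXT2, HXT4, HXT6, HXT7 and HXT13 are also among the glucose-repressed genes counted above. Each of them was called lower at 0.5 µg/mL, so the lower calls of the 2 lists there are not separate. The 8 lower calls at 0.5 µg/mL are about the share of all genes, 38.9%, and the list's median there was -0.21, or 0.09 relative to the median of all genes. HXT1 and HXT3, low-affinity transporters of abundant glucose, stood at 0.84, 1.06 and 0.55 and at 0.82, 1.16 and 0.53, where the last value of HXT3 was not called. HXT9 rose at all doses, from 0.60 to 0.78, whereas HXT13 and HXT17 were lower at 0.5 µg/mL, at -0.75 and -0.68.

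Of 13 genes of lower glycolysis, 3, 3 and 1 were called higher and 0 lower at the 3 doses, with medians of 0.37, 0.43 and 0.20. Of all genes, 8.75%, 17.6% and 7.49% were called higher and 15.4%, 20.4% and 38.9% lower. Relative to the median of all genes, the list's medians were 0.45, 0.46 and 0.50. The genes that rose were PYK2, the minor pyruvate kinase, at all 3 doses (0.85, 1.21 and 0.64), and at 0.01 and 0.1 µg/mL GPM2 (0.94 and 0.83) and TDH1 (0.71 and 0.77), each of which has a more abundant paralog. Of 15 genes for regulators of glycolysis and stress, 4, 7 and 3 were higher and 2, 3 and 6 lower, where the lower calls are close to the shares of all genes (15.4%, 20.4% and 38.9%) and those at 0.5 µg/mL include RAP1 itself. The protein kinase A gene TPK2 rose at all doses, at 0.73, 1.02 and 0.54, while TPK3 fell at all doses, from -0.53 to -0.77. The regulatory subunit gene BCY1 rose at 0.1 and 0.5 µg/mL, at 0.58 and 0.49. ABF1 was lower at all doses, from -0.61 to -1.29, and REB1 at 0.1 and 0.5 µg/mL, at -0.51 and -0.94. MSN2 and MSN4, whose products bind the stress response element, were not called (values from -0.33 to 0.34, chosen after they were seen, with q from 0.157 to 0.854 in the authors' deposited tables). The genes for the factors of 2 other motifs searched, also chosen after they were seen, were called. GCR1 was higher at 0.01 and 0.1 µg/mL, at 0.44 and 0.65, and HSF1 at 0.1 µg/mL alone, at 0.54.

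**Figure D5:**
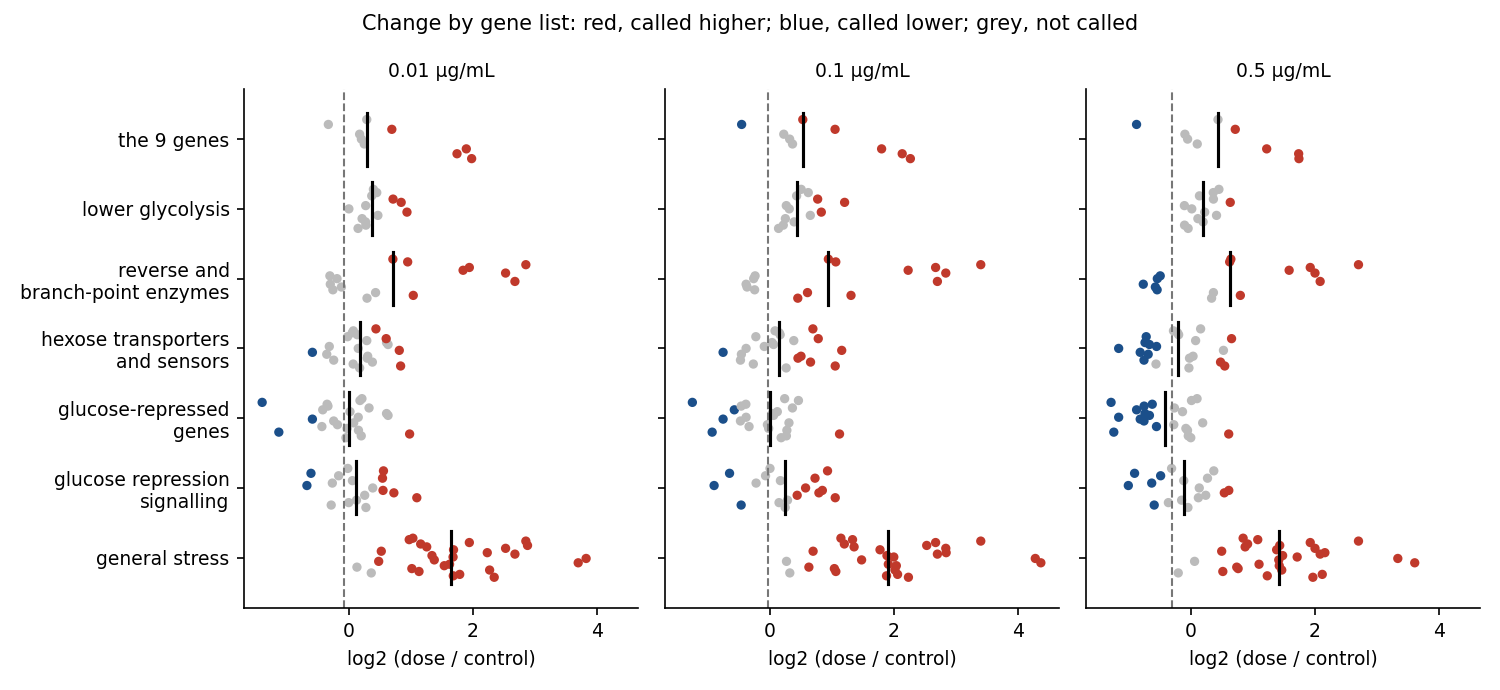
Log2 fold change against the control of each tested gene (points) of the 9 genes and of 6 lists at the 3 doses; black bars are list medians, the dashed line is the median of all tested genes, red and blue points are genes called higher and lower. The 9 genes spread from -0.87 to 2.26, the general stress genes lie furthest to the right, and at 0.5 µg/mL the dashed line itself lies at -0.30, where 38.9% of all tested genes were called lower and 7.49% higher.

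The likeness of patterns was measured by the Euclidean distance between the log2 fold changes at the 3 doses, over 5041 genes tested in all tables. The doses share 1 control group, so this is a description. Among the 9 genes, HXK2 was nearest to PFK1, at a distance of 0.17, and was at 2.45 from HXK1, 2.83 from GLK1 and 3.04 from EMI2. GLK1 was nearest to EMI2, at 0.27, and at 0.63 from HXK1. PFK27 was furthest from EMI2, at 4.42. Outside the 9 genes, those nearest to HXK2 were TDA11, COG7 and ARP2, at distances of 0.018, 0.019 and 0.020, and none of them was called at any dose. Those nearest to GLK1 were IGD1, an inhibitor of glycogen debranching, STF2 and MSC1, at 0.072, 0.13 and 0.15. They were called higher at all 3 doses with the smallest q of each of the authors' deposited tables.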

How the data were processed

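RNA from 12 yeast samples in 4 groups of 3 was sequenced; per the labels' protocols, total RNA was column-purified, polyA RNA was used and TruSeq libraries were made. The submitters' processing notes name build R64 and the tools FastQC, Bowtie2 and Cuffdiff. No tool version, strand setting or annotation is given there. The authors deposited 3 tables, each of 1 dose against the control, with 1 pooled level per group. The headers do not name the unit of the deposited levels, and FPKM was inferred because the columns carry the names that Cuffdiff writes. The log2 fold changes were recomputed and differed from the authors' deposited values by at most 1.27e-05 among tested genes. The authors' q-values (adjusted p-values) were taken as deposited.

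A gene counted as tested where both levels were above 0 and q was under 1. The tables were scaled separately, with control levels of the 9 genes differing by at most 0.451% between them. With pooled levels, no test per gene could be added and no sample left out. There are 3 blank lines per table, and a few listed genes are not analysed here. The 9 genes and the gene lists were chosen with earlier results of these data known. Named from each list are the genes called at 1 or more doses or, beyond 6, the 3 with the highest and the 3 with the lowest summed log2 fold change; 1 gene so chosen is not reported here. Start codons, sequences and motif windows came from the R64 RefSeq assembly, and coding sequences were aligned globally. Python 3.11.15, pandas 2.3.3 and numpy 2.4.6 were used, and the calling and motif steps were tested on simulated data. Alternatives changed the q threshold, a minimum change, the centring, a pseudocount of 1 FPKM, the control level and the motif window.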

Additional observations from a re-analysis of the deposited data

How the results depend on the processing

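PFK26 was no longer called at 0.01 and 0.5 µg/mL where at least 2-fold was required, and at 0.01 µg/mL where 2-fold was counted from the median of all genes. The 1 gene called lower at 0.1 µg/mL, PFK27, was lost (0 called) at q below 0.01 and where 2-fold was required, from 1 or from the median of all genes, and at 0.5 µg/mL it was also lost (0 called) under both 2-fold rules. Counts of higher calls ranged from 3 to 5 over the alternatives. At q below 0.1, PGI1 was also called at 0.5 µg/mL, and at q below 0.01, PGI1 at 0.1 µg/mL and GLK1 at 0.5 µg/mL were no longer called. The excess of HXK1, GLK1 and EMI2 over HXK2 moved by at most 0.019 on the log2 scale with a pseudocount of 1 FPKM and by less with the mean control level of the 3 tables. No called gene of the 9 changed direction under any centring, scaling or pseudocount. PFK1 and PFK2 at 0.5 µg/mL, not called, changed sign under all 3 centrings. Of 42 list counts, 8 changed by over 1.5 times at q below 0.01, and 27 and 25 did under the 2-fold rules. No paired analysis was possible because the deposited levels pool the samples of a group, and for the same reason no replicate could be left out. The depth is unknown and sets no limit that could be computed.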
